A study of Mus musculus with 12 samples.

Results

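Genes of glycolysis and of the response to low oxygen were followed in activated mouse CD4+ T cells with and without IL-12. The set holds 36 genes chosen by symbol. It covers glucose transport (2 genes), the glycolytic enzymes (16), the PFKFB enzymes that set fructose 2,6-bisphosphate (2), lactate export (2), control of pyruvate entry into mitochondria (4), HIF-1α with its hydroxylases (3) and HIF-1 targets (7). A gene was taken as measured where the platform annotation gave a probe set its symbol alone, which held for 34 of the 36 members among 19752 genes. Gpi1 and Eno1 were not analysed here.

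Glycolysis breaks glucose down to pyruvate, and lactate dehydrogenase turns pyruvate into lactate, which monocarboxylate transporters carry out of the cell. T cells that have been activated through their antigen receptor take up more glucose and make lactate even when oxygen is present. The transcription factor HIF-1 drives many of these genes. Its α subunit is marked for degradation by oxygen-dependent prolyl hydroxylases of the Egln family, and some of its targets, Egln3 among them, act back on the pathway.

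Splenic CD4+ T cells of 6-week-old male C57BL/6 mice were enriched by negative selection, and every group was activated with CD3/28 beads for 48 h. IL-12, which antigen-presenting cells release and which steers helper T cells towards the Th1 type, was then added at 100 U/ml for 2 h (n = 5) or 8 h (n = 4). Cells without IL-12 were kept for 2 h (n = 2) or are labelled baseline, with no culture time given (n = 1). No untreated 8 h group was analysed here, so 8 h of IL-12 cannot be told apart from the longer culture. Separate animals or cultures are not named in the labels, so that p-values reflect the spread among these samples, whether biological or technical.

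RNA was read on Affymetrix Mouse Gene 1.0 ST arrays, and levels are log2 intensities whose median was even across the 12 arrays (linear median 160.6 to 167.3). Each title ends in a number, which is 2 to 4 (5 arrays) or 5 and 6 (4 arrays) with IL-12, 7 and 8 in untreated samples and 5 at baseline. What the numbers mean is not stated. These 2 runs of numbers stood apart, with 11.8% of all genes higher and 12.5% lower in arrays numbered 2 to 4 than in arrays numbered 5 to 8. That difference rests on the IL-12 arrays, which alone lie in both runs. The run was therefore a term in the model behind every value below unless another fit is named. CD4 T cell markers (7 of 8 measured) had a mean log2 level of at least 12.01 on every array, and Cd4 itself lay between 11.51 and 12.07. The mean of macrophage and monocyte markers (14 of 16 measured) was 6.29 to 6.38 in arrays numbered 2 to 4 and 6.56 to 6.81 in IL-12 and untreated arrays numbered 5 to 8. Lyz2, the macrophage lysozyme, reached 8.44 to 9.93 in those arrays, against 6.66 to 7.28 in arrays numbered 2 to 4. The baseline array had a macrophage marker mean of 6.51 and Lyz2 at 7.65. Ifng, the gene for interferon-gamma that IL-12 induces, lay at 10.94 to 12.04 in the 9 IL-12 arrays and at 9.35 to 9.69 in the 3 others.

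The clearest pattern of the glycolytic and hypoxia-response genes was a high level in the baseline array. It was the highest of all 12 arrays in 28 of the 34 measured members and the lowest in 0, whereas over all genes it was highest in 12.6% and lowest in 9.63%. Both glucose transporters, 12 of 14 glycolytic enzymes, both lactate transporters and all 7 HIF-1 targets peaked there. The exceptions were Eno2, Ldhb, Pfkfb4, Pdk2, Pdha1 and Hif1a.

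**Figure D1:**
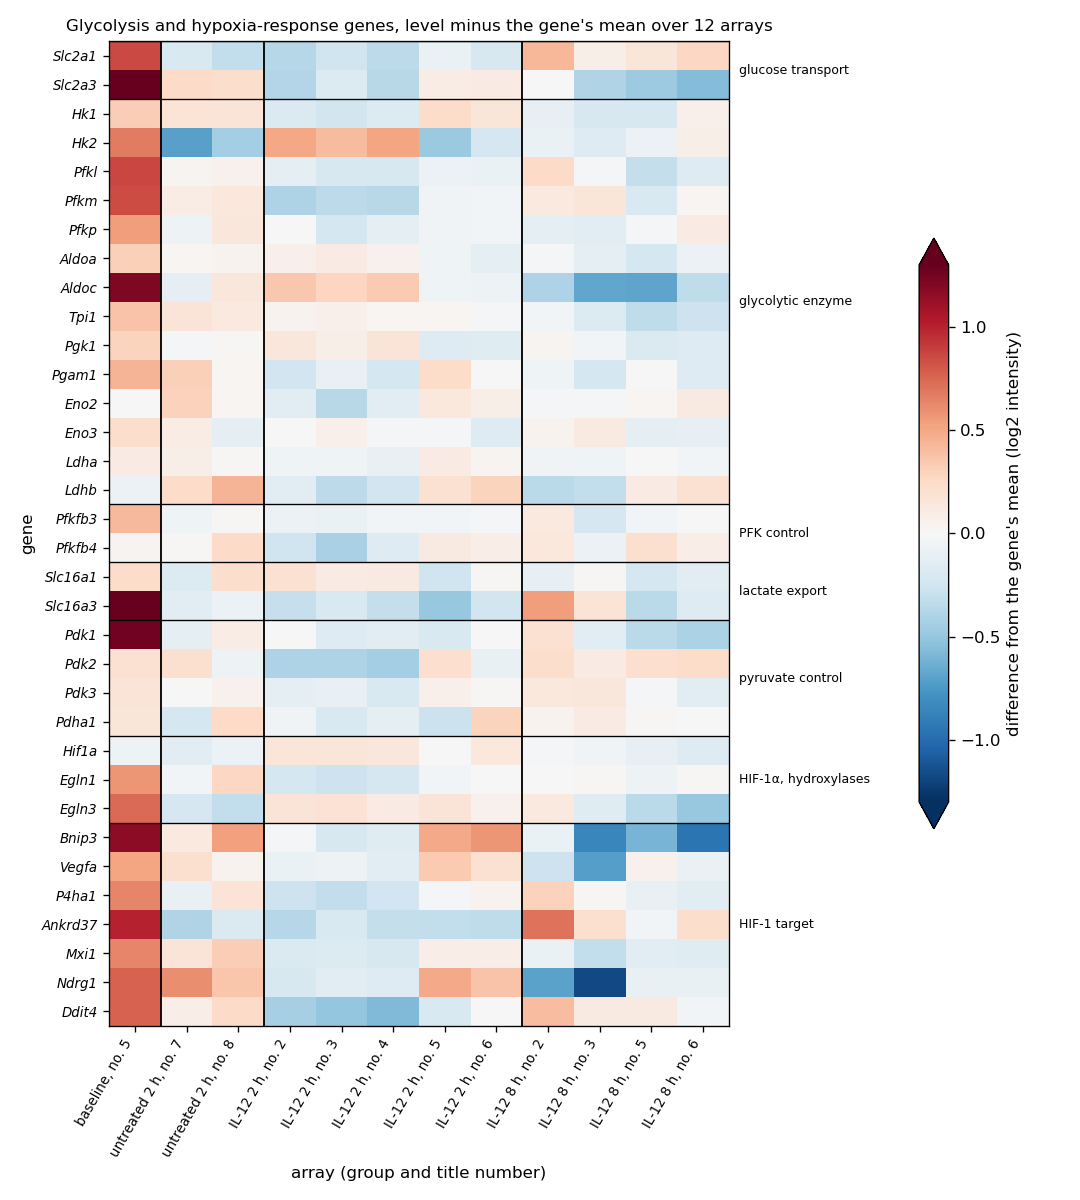
Level of each measured member on each array minus that gene's mean over the 12 arrays (colour, log2 intensity). Rows are genes grouped by role. Columns are arrays by group (baseline, untreated 2 h, IL-12 2 h, IL-12 8 h) and title number, and the baseline array has no culture time given. The baseline column is the highest for 28 of the 34 genes, and the HIF-1 targets Bnip3 and Ndrg1 are bluest at 8 h of IL-12.

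Untreated cells at 2 h (n = 2) were set against the baseline array (n = 1). The single baseline array adds nothing to the spread used in this test, which comes from the other arrays of the model. The p-values therefore cannot separate the baseline group from that 1 array. Of 34 members, 13 were lower in untreated cells and 1 was higher by limma at an adjusted p under 0.05, against 3.96% of all genes lower and 6.28% higher. The difference was negative in 31 of the 34, against 11273 of all 19752 genes. Its median log2 was -0.39 in members, against -0.03 over all genes.

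Slc16a3 and Slc2a3, which carry lactate out of the cell and glucose into it, had the largest differences of the 34 members, at a log2 of -1.66 and -1.44. Slc16a3 encodes the lactate exporter MCT4, and its level was 9.82 and 9.88 in the untreated arrays, against 11.51 in the baseline array. That is a log2 difference of -1.66 ± 0.20 (SE), 3.16-fold lower in untreated cells (limma adjusted p = 0.000127). The other exporter of the set, Slc16a1 or MCT1, was at 10.54 and 10.94 in untreated cells and 10.96 in baseline cells, and was not called (-0.22 ± 0.15, adjusted p = 0.432). Of the glucose transporters, Slc2a1 (GLUT1) was at 11.65 and 11.54 in untreated cells and 12.71 in baseline cells, and Slc2a3 (GLUT3) at 10.37 and 10.35 against 11.80. Both transporters fell, Slc2a1 by 1.11 ± 0.14 (adjusted p = 0.000261) and Slc2a3 by 1.44 ± 0.22 (adjusted p = 0.001) on the log2 scale. In all 3 of the transporters called, the untreated arrays lay close together and well under the baseline array.

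In pyruvate control 1 of 4 members was called, and 2 of the 3 genes for HIF-1α and its hydroxylases and 1 of 7 HIF-1 targets were, all lower in untreated cells. Pdk1, a kinase that shuts pyruvate dehydrogenase off, was at 9.45 and 9.67 in untreated cells and 10.83 in baseline cells (-1.27 ± 0.18, adjusted p = 0.000459). Ankrd37, an ankyrin repeat gene induced by HIF-1, was at 7.33 and 7.53 in untreated cells and 8.72 in baseline cells (-1.29 ± 0.19, adjusted p = 0.000594). Egln3, the prolyl hydroxylase that is itself a HIF-1 target, had 11.29 and 11.18 in untreated cells, against 12.24 in the baseline array (-1.01 ± 0.15, adjusted p = 0.000739). In each of these 3 genes both untreated arrays stood clear of the baseline value. Egln1, the main HIF hydroxylase, fell by 0.45 ± 0.13 (adjusted p = 0.0393), a call that was lost without untreated array 7 (-0.30, adjusted p = 0.191) and without array 2 or 4 of the IL-12 2 h group. Hif1a did not follow them: it was at 12.76 and 12.83 in untreated cells and 12.84 in baseline cells (-0.05 ± 0.10, adjusted p = 0.83).

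The upstream regions of the 4 members with the smallest p in this comparison are printed because HIF-1 is known to bind a short core, ACGTG or GCGTG, in several of the genes that it drives. Each is the 250 bases before the first listed transcript start, from RefSeq on GRCm38.p6, read 5′ to 3′ on the gene's strand. Capitals mark each core match on either strand. On the opposite strand ACGTG reads CACGT, and GCGTG reads CACGC. Positions of the regions are chr11:120948817-120949066, plus strand, for Slc16a3, chr4:119108495-119108744, plus strand, for Slc2a1, chr2:71872974-71873223, plus strand, for Pdk1, and chr8:45999851-46000100, minus strand, for Ankrd37.
Slc16a3: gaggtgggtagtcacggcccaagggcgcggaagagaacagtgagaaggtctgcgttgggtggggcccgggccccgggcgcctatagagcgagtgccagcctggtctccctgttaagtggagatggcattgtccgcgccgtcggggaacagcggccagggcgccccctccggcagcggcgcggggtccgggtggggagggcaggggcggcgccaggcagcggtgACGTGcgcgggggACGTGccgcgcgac
Slc2a1: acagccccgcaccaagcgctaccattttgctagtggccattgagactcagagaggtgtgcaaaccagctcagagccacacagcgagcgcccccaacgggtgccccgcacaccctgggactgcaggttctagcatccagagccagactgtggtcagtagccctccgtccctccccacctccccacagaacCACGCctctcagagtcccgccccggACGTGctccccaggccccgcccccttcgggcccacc
Pdk1: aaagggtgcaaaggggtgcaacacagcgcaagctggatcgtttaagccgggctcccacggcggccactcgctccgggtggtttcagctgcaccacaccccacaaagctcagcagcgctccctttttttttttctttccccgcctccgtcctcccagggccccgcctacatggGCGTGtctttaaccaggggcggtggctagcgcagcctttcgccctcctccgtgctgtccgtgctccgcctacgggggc
Ankrd37: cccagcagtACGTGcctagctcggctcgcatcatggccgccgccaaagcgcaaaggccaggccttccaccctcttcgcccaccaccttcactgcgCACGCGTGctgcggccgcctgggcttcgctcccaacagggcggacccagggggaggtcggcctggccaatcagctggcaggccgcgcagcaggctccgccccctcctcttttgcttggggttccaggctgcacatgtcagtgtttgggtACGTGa
Slc16a3 holds 2 matches, at -27 and -14 counted back from the start, Slc2a1 holds 2, at -61 and -36, and Pdk1 holds 1, at -78. Ankrd37 holds 4, at -241, -155, -152 and -6, of which the middle 2 overlap. The palindrome CACGTG, the E-box that Myc and other factors bind and that contains the core on both strands, is in 0 of these 4 windows.

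A promoter window was listed for 34 of the 36 members, all but Slc2a3 and Ndrg1. A core match was present in 27 of them (79.4%), against 10431 of 27025 genes (38.6%). It was present in 12 of the 12 windows of members lower in untreated than in baseline cells and in 14 of the 20 windows (70%) of the other measured members. The E-box was in 6 of the 34 member windows (17.6%) and in 6.05% of all genes. Member windows were also richer in G and C, with a median of 62.6% and 14.5 CpG steps, against 52.0% and 6 over all genes, and both core spellings contain a CpG. The part of base composition in these shares was not tested, and a match is a description of letters, not of binding.

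Among the 14 enzymes measured, 5 were lower in untreated cells, and all 5 act at the hexokinase, phosphofructokinase and aldolase steps. Hk2, the inducible hexokinase that traps glucose, was at 8.85 and 9.12 in untreated cells and 10.24 in baseline cells (-1.25 ± 0.27, adjusted p = 0.008). All 3 phosphofructokinase genes, whose product commits sugar to glycolysis, were lower as well. Pfkl fell by 0.82 ± 0.16 (adjusted p = 0.00432), Pfkm by 0.73 ± 0.17 (adjusted p = 0.0143) and Pfkp by 0.50 ± 0.12 (adjusted p = 0.0167), and their activator's synthase Pfkfb3 by 0.44 ± 0.12 (adjusted p = 0.0312). Aldoc, an aldolase, was at 9.39 and 9.65 in untreated cells and 10.72 in baseline cells (-1.20 ± 0.18, adjusted p = 0.000798). Tpi1, Pgk1, Aldoa and Ldha showed smaller differences that were not called. Tpi1, triosephosphate isomerase, was at 13.03 and 12.99 in untreated cells and 13.23 in baseline cells, and Pgk1, phosphoglycerate kinase, at 13.11 and 13.14 against 13.41. Aldoa, the main aldolase of most tissues, was at 13.31 and 13.33 against 13.60 (-0.27 ± 0.10, adjusted p = 0.112). Ldha, which makes lactate, was at 13.94 and 13.88 in untreated cells and 13.97 in baseline cells (-0.06 ± 0.09, adjusted p = 0.768). Ldhb, the subunit that favours the reverse reaction, was the 1 member that was higher, at 8.82 and 9.02 in untreated cells and 8.51 in baseline cells (0.41 ± 0.11, adjusted p = 0.036). With the baseline array placed in run 2 to 4, the Ldhb difference was -0.079 (adjusted p = 0.934). Without untreated array 7, Pfkm, Pfkp, Pfkfb3 and Egln1 were not called, without untreated array 8 Pfkfb3 and Ldhb were not, and without array 4 of the IL-12 2 h group Ldhb was not.

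The remaining HIF-1 targets were all lower in untreated cells without passing the test. Bnip3, a receptor for the removal of mitochondria, was at 10.77 and 11.17 in untreated cells and 11.80 in baseline cells (-0.83 ± 0.33, adjusted p = 0.148), and its other probe set gave -1.12 ± 0.30 (adjusted p = 0.0289). Ddit4, an inhibitor of the growth kinase mTORC1, was at 10.05 and 10.21 in untreated cells and 10.73 in baseline cells, and Vegfa, the endothelial growth factor, at 8.87 and 8.70 against 9.17. P4ha1 (-0.59), Mxi1 (-0.39) and Ndrg1 (-0.28) had adjusted p of 0.0622, 0.0562 and 0.346.

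**Figure D2:**
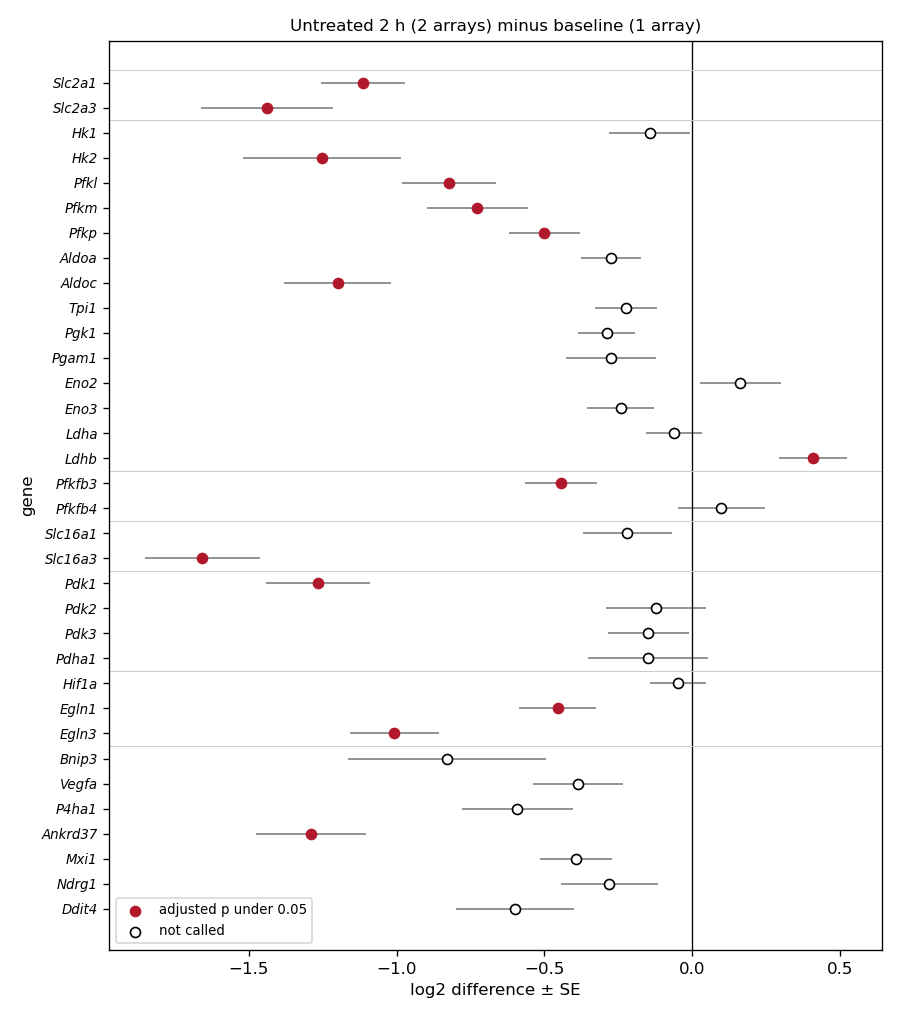
Log2 difference in level of untreated 2 h arrays (n = 2) minus the baseline array (n = 1) for each measured member, grouped by role from top to bottom. Bars are the standard error of the limma fit, and filled points passed an adjusted p under 0.05. The points run from -1.66 for Slc16a3 to 0.41 for Ldhb, and 31 of 34 lie left of 0.

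Other genes of these pathways shared the high baseline level in part. The baseline array was the highest in 4 of 21 glycolysis and pyruvate genes and in 12 of 33 hypoxia-response genes outside the set, against 12.6% of all genes. It was the lowest in 2 and 4 of them, against 9.63%. Of 21 further glycolysis and pyruvate genes, 3 were higher and 2 lower in untreated cells, with a median of -0.02. Pkm, pyruvate kinase, fell by 0.57 ± 0.11 and Pgm1, phosphoglucomutase, by 0.88 ± 0.15. Pdp1, the phosphatase that turns pyruvate dehydrogenase on, was higher by 0.74 ± 0.11. Of 33 further hypoxia-response genes, 4 were higher and 9 lower, with a median of -0.01; Higd1a, a mitochondrial gene induced by low oxygen, fell by 0.96 ± 0.16 and Jmjd6, a 2-oxoglutarate-dependent oxygenase, by 0.79 ± 0.11. None of 6 pentose phosphate genes and 3 of 13 regulators, all higher, were called.

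Several values move with this comparison. Lyz2 was at 9.93 and 9.64 in untreated cells and 7.65 in baseline cells (2.13 ± 0.32, adjusted p = 0.0007). The macrophage marker mean was 6.81 and 6.71 in untreated cells and 6.51 in baseline cells, and 2 of 14 such markers were called, both higher. The mean of the erythroid and platelet markers (4 of 7 measured) was 6.86 and 7.17 in untreated cells, against 8.23 in the baseline array. The platelet genes made this difference, Pf4 with 7.49 and 7.79 against 9.60 and Ppbp with 6.55 and 7.75 against 10.02. The erythroid genes differed little, Alas2 with 6.26 and 6.05 against 6.12 and Slc4a1 with 7.16 and 7.08 against 7.19. The mean of the B cell markers (7 of 8 measured) was 6.84 and 6.79, against 7.19. Their part in the result was not tested. When the macrophage mean entered the fit as a covariate, 0 members were called, and 80 genes were higher and 18 lower over all. The member median was -0.38 with the covariate and -0.39 without it. The macrophage mean was 6.29 to 6.38 in arrays numbered 2 to 4 and 6.51 to 6.81 in all others. It nearly repeats the run term already in the model, so this fit cannot separate the markers from the run. In that fit Slc16a3 was at -1.72 (adjusted p = 0.0844) and Slc2a1 at -1.09 (adjusted p = 0.124), while Aldoc was at -0.75 (adjusted p = 0.346). The baseline array carries number 5 but correlated at 0.9923 to 0.9951 with arrays numbered 2 to 4, and at 0.9879 to 0.9924 with the others. Placed in that run, 9 members were lower and 0 higher, and with no run term 7 and 0.

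From 2 h to 8 h of IL-12 the set split. The test compared 4 arrays at 8 h with 5 at 2 h, and called 5 of 34 members higher and 7 lower at 8 h, against 6.27% and 6.36% of all genes. The median difference was -0.04, close to the -0.01 of all genes. With the title number as a replicate block, 2 members were higher and 5 lower, and Ddit4, Pdk2, Tpi1, Hif1a and Slc16a3 were no longer called. Without array 3 of the 8 h group, 3 were higher and 2 lower, as Bnip3, Pdk2, Vegfa, Egln3, Tpi1, Hif1a and Slc16a3 were not called. Without array 2 of that group 3 were higher and 7 lower, and Slc16a3, Pdk2 and Hif1a were not called. Of the 14 macrophage markers 0 were called in this comparison.

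Of the 5 members that rose, Slc2a1 was at 12.28, 11.93, 12.01 and 12.13 in the 8 h arrays numbered 2, 3, 5 and 6, against 11.48, 11.59, 11.52, 11.76 and 11.64 in the 2 h arrays numbered 2 to 6. Every 8 h array was above every 2 h array, and the log2 difference was 0.48 ± 0.08 (limma adjusted p = 0.00109). Ankrd37 behaved alike, with 8.42, 7.93, 7.69 and 7.95 at 8 h and 7.35, 7.52, 7.41, 7.40 and 7.39 at 2 h. Its groups did not overlap either, array 2 at 8 h was the highest, and the difference was 0.60 ± 0.10 (adjusted p = 0.00153). Slc16a3 was at 10.51, 10.14, 9.61 and 9.79 at 8 h and 9.66, 9.76, 9.65, 9.47 and 9.73 at 2 h (0.39 ± 0.11, adjusted p = 0.0267). There the 8 h arrays numbered 2 and 3 stood above all 2 h arrays, while those numbered 5 and 6 lay among them or just above. Ddit4 was at 10.36, 10.08, 10.08 and 9.93 at 8 h and 9.53, 9.46, 9.39, 9.77 and 9.96 at 2 h (0.48 ± 0.11, adjusted p = 0.0101). Its groups met at array 6, where both times were nearly equal. Pdk2, a second pyruvate dehydrogenase kinase, was at 8.04, 7.91, 8.02 and 8.04 at 8 h and 7.40, 7.40, 7.36, 8.02 and 7.71 at 2 h, a rise of 0.39 ± 0.09 (adjusted p = 0.0126) with array 5 at 2 h inside the 8 h range.

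Of the 7 members that fell, the largest changes were in HIF-1 targets and Aldoc. Ndrg1, a gene induced by low oxygen, was at 9.20, 8.72, 9.80 and 9.80 at 8 h and 9.69, 9.76, 9.73, 10.39 and 10.27 at 2 h. The groups overlapped over all arrays, but within each run every 8 h array was below every 2 h array, and Ndrg1 fell by 0.66 ± 0.09 (adjusted p = 0.000317). Aldoc was at 9.10, 8.83, 8.82 and 9.17 at 8 h and 9.85, 9.78, 9.84, 9.45 and 9.44 at 2 h. Its groups did not overlap, and it fell by 0.67 ± 0.10 (adjusted p = 0.000531). Bnip3 was at 10.55, 9.79, 10.04 and 9.69 at 8 h and 10.61, 10.42, 10.48, 11.13 and 11.21 at 2 h. Array 2 at 8 h was the only one inside the 2 h range, and Bnip3 fell by 0.78 ± 0.18 (adjusted p = 0.0122). Its other probe set gave -0.49 ± 0.16 (adjusted p = 0.0752), and without array 3 of the 8 h group Bnip3 was not called. Vegfa was at 8.39, 7.94, 8.71 and 8.57 at 8 h and 8.58, 8.60, 8.52, 9.004 and 8.86 at 2 h, and fell by 0.35 ± 0.08 (adjusted p = 0.0139), with overlap between the groups.

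The HIF-1 sensing genes and a glycolytic enzyme made up the rest of the falls. Hif1a was at 12.89, 12.86, 12.802 and 12.74 at 8 h and 13.07, 13.07, 13.06, 12.91 and 13.04 at 2 h. All 8 h arrays were below all 2 h arrays, by a small step of -0.20 ± 0.05 (adjusted p = 0.0244), which was lost under 12 of 21 alternatives. Egln3 was at 11.63, 11.35, 11.15 and 11.01 at 8 h and 11.67, 11.69, 11.61, 11.67 and 11.57 at 2 h (-0.33 ± 0.08, adjusted p = 0.016). Array 2 at 8 h was again the one that reached the 2 h range. Tpi1 was at 12.82, 12.68, 12.53 and 12.59 at 8 h and 12.91, 12.93, 12.88, 12.89 and 12.85 at 2 h, without overlap (-0.23 ± 0.06, adjusted p = 0.0183). The other 12 enzymes were not called, Ldha (-0.03) and Pgk1 (-0.08) among them.

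**Figure D3:**
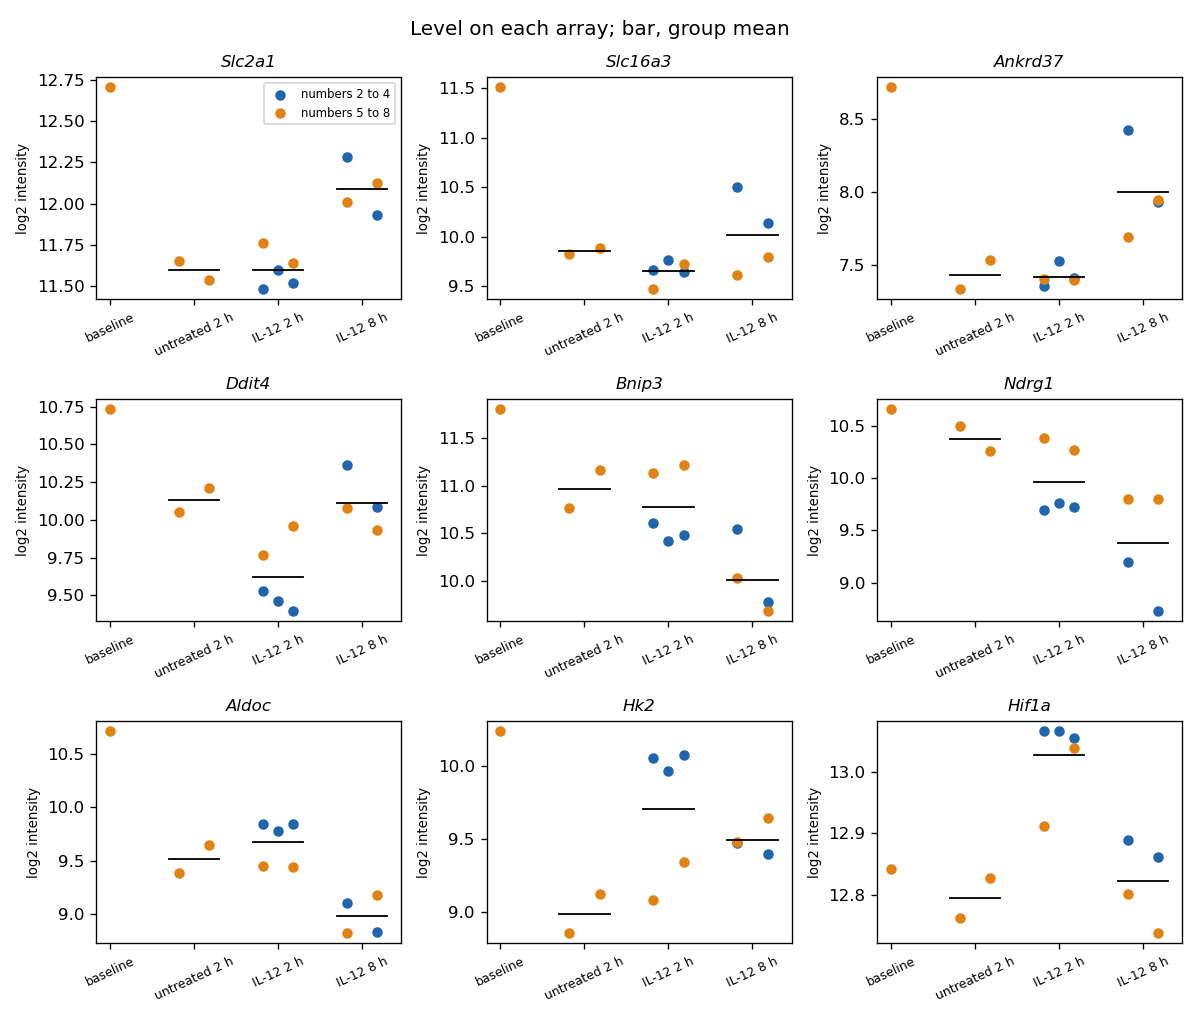
Log2 intensity of 9 members on each array, by group from baseline to 8 h of IL-12, with the group mean as a bar and the number run as colour. Axes differ between panels. Slc2a1 and Ankrd37 at 8 h lie above all 2 h points, Aldoc lies below them, and the baseline point is the top one in every panel but that of Hif1a.

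Some further pathway genes were called in each direction between 2 h and 8 h, where 6.27% of all genes were higher and 6.36% lower. Of 21 other glycolysis and pyruvate genes, 1 was higher and 2 lower, with Pdp1 falling by 0.56 ± 0.06 and its relative Pdp2 rising by 0.32 ± 0.07. Of 33 other hypoxia-response genes, 2 were higher and 3 lower. P4ha2, a collagen prolyl hydroxylase, fell by 0.42 ± 0.06 and Bnip3l, the close relative of Bnip3, by 0.38 ± 0.07. Of 13 regulators of the programme, 3 were higher and 4 lower. Myc, which drives glycolytic genes in activated T cells, fell by 0.69 ± 0.12 (adjusted p = 0.0013), and Irf4, a factor needed for sustained glycolysis in T cells, by 1.00 ± 0.16 (adjusted p = 0.000937). Both changes differed between the runs, with Myc at -1.04 in arrays numbered 2 to 4 and -0.28 in arrays numbered 5 and 6 (difference -0.76 ± 0.11, adjusted p = 0.00403). Irf4 changed by -1.51 in arrays numbered 2 to 4 and by -0.38 in arrays numbered 5 and 6 (difference -1.13 ± 0.10, adjusted p = 8.26e-05).

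At a matched time, 2 h of IL-12 (n = 5) against 2 h untreated (n = 2), limma called 0 of 34 members in either direction, against 0.0709% of all genes higher and 0% lower. Before adjustment, 5 members were lower and 3 higher at a limma p under 0.05. The share of all genes at that cut was not counted, so these counts cannot be set against it. Differences ran from -0.44 for Ddit4 to 0.48 for Hk2, with a median of -0.11, against a median of -0.00 over all genes. Ddit4 was at 9.53, 9.46, 9.39, 9.77 and 9.96 with IL-12 and at 10.05 and 10.21 without it. All IL-12 arrays were below both untreated arrays, but the adjusted p was 0.863. Hif1a was at 13.07, 13.07, 13.06, 12.91 and 13.04 with IL-12 and at 12.76 and 12.83 without it, a non-overlapping difference of 0.18 ± 0.07 with an adjusted p of 0.969. Egln3 lay above both untreated arrays in all 5 IL-12 arrays as well (0.28 ± 0.11, adjusted p = 0.969). Hk2 was at 10.06, 9.97, 10.08, 9.08 and 9.34 with IL-12 and at 8.85 and 9.12 without it (0.48 ± 0.20, adjusted p = 0.969). The IL-12 arrays nearest the untreated ones were those of the same number run, at 9.08 and 9.34. The estimates for Slc2a1 (0.05 ± 0.11) and Ldha (-0.00 ± 0.07) lay within 1 SE of 0.

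The 8 h IL-12 arrays (n = 4) differed from the 2 h untreated arrays (n = 2) in 1 member that was higher and 3 that were lower, against 1.04% and 2.13% of all genes. The comparison shares its untreated arrays with the one above and its 8 h arrays with the step from 2 h to 8 h. Slc2a1 was at 12.28, 11.93, 12.01 and 12.13 with 8 h of IL-12 and at 11.65 and 11.54 untreated. The groups did not overlap (0.53 ± 0.11, limma adjusted p = 0.0147). Tpi1 fell by 0.41 ± 0.08 (adjusted p = 0.011), Ndrg1 by 0.65 ± 0.13 (adjusted p = 0.0112) and Aldoc by 0.64 ± 0.14 (adjusted p = 0.0202), also with no overlap between the groups. Bnip3 was at 10.55, 9.79, 10.04 and 9.69 with 8 h of IL-12 and at 10.77 and 11.17 untreated, which did not pass (-0.84 ± 0.25, adjusted p = 0.104). Slc2a3 was at 10.12, 9.74, 9.65 and 9.56 with 8 h of IL-12 and at 10.37 and 10.35 untreated, likewise without overlap and not called (-0.56 ± 0.17, adjusted p = 0.106). Leaving out untreated array 7 or 8 left 0 members higher and 1 lower, and leaving out array 2 of the 8 h group gave 2 higher and 6 lower. Among the other pathway genes, Bpgm, which makes 2,3-bisphosphoglycerate, fell by 0.77 ± 0.19, P4ha2 by 0.58 ± 0.09 and Bnip3l by 0.46 ± 0.10.

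Across the runs, 2 members were higher and 7 lower in arrays numbered 2 to 4 than in arrays numbered 5 to 8, against 11.8% and 12.5% of all genes. Only IL-12 arrays lie in both runs, and the run difference rests on them. The log2 difference was -0.71 ± 0.09 for Ndrg1 (limma adjusted p = 8.92e-05), -0.49 ± 0.06 for Ldhb (adjusted p = 9.72e-05) and -0.42 ± 0.08 for Vegfa (adjusted p = 0.0026). It lay between -0.29 and -0.22 for Hk1, Pfkfb4, Pdk2 and Eno2, while Pgk1 (0.24 ± 0.05) and Slc16a3 (0.33 ± 0.11) were higher. Of 14 macrophage markers, 6 were lower and 1 higher in arrays numbered 2 to 4, with a median of -0.12. Lyz2 had the largest difference of these markers, -1.96 ± 0.17 (limma adjusted p = 5.28e-06), and their part in the result was not tested. With their mean as a covariate 0 members and 2 genes in all were called, while the member median was -0.06 with and without it. That mean was 6.29 to 6.38 in arrays numbered 2 to 4 and 6.56 to 6.72 in IL-12 arrays numbered 5 and 6. It separates the runs by itself, so this fit cannot tell the markers from the run.

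The step from 2 h to 8 h of IL-12 differed between the runs in 3 members, 2 with a more positive change in arrays numbered 2 to 4 and 1 with a more negative one, against 0.840% and 0.952% of all genes. The 8 h minus 2 h difference of Hk2 was -0.60 in arrays numbered 2 to 4 and 0.35 in arrays numbered 5 and 6. The difference between the runs was -0.95 ± 0.15 (limma adjusted p = 0.00569) and was called under all 17 alternatives. At 8 h the 4 arrays lay together at 9.39 to 9.64, and the runs parted at 2 h, with 9.97 to 10.08 in arrays numbered 2 to 4 and 9.08 and 9.34 in arrays numbered 5 and 6. Slc2a3 changed by 0.11 in arrays numbered 2 to 4 and by -0.62 in arrays numbered 5 and 6 (difference 0.73 ± 0.15, adjusted p = 0.0302). Pfkm changed by 0.51 in the first of these runs and by -0.05 in the other (difference 0.56 ± 0.11, adjusted p = 0.0255). Bnip3 was not called, with a difference of 0.97 ± 0.27 (adjusted p = 0.101). Its other probe set, outside the count of members, gave 0.95 ± 0.21 (limma adjusted p = 0.0417). Over the whole set the difference was positive in 26 of 34 members, against 9345 of all 19752 genes. Its median was 0.23 in members, against -0.01 over all genes. Array 2 of the 8 h group, which belongs to the run numbered 2 to 4, was the highest 8 h array in 16 of the 34 members. Slc2a1, Slc16a3, Ankrd37, Bnip3 and Egln3 were among them, and the share over all genes was not counted. Without array 2 at 8 h, 0 members had a more positive and 1 a more negative change. Leaving out any single 2 h array numbered 2, 4 or 6 also left 0 and 1.

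**Figure D4:**
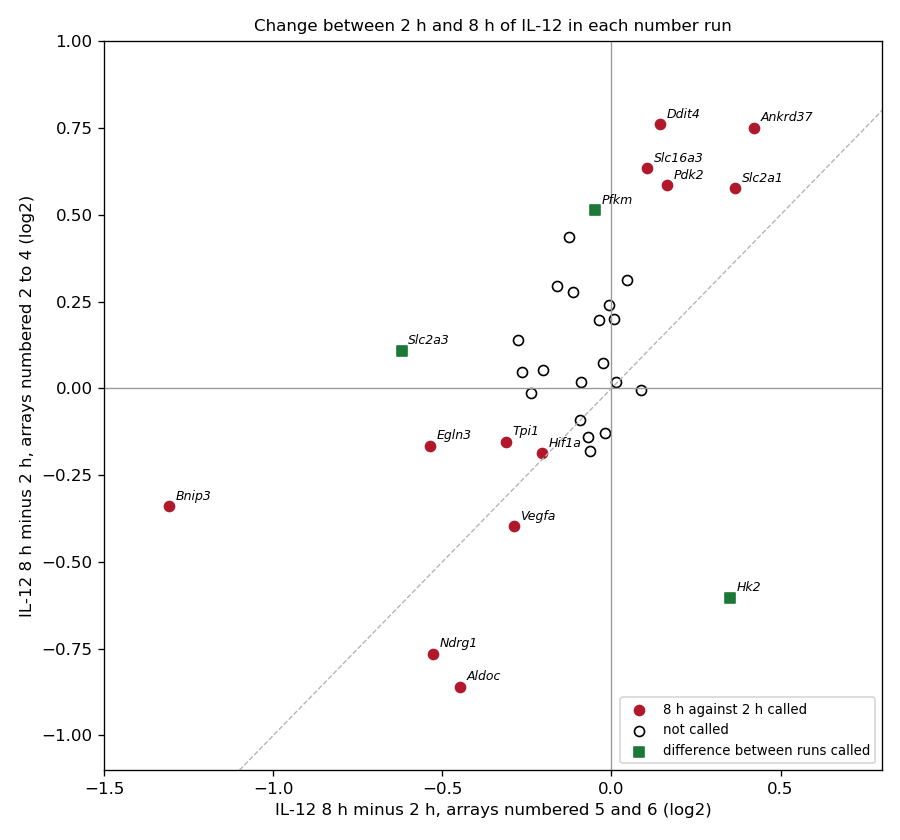
Log2 difference of IL-12 8 h minus IL-12 2 h in arrays numbered 2 to 4 (vertical axis) against arrays numbered 5 and 6 (horizontal axis), 1 point per measured member. The dashed line marks equal change. Slc2a1 and Ankrd37 are positive and Ndrg1, Aldoc and Vegfa negative in both runs, while Hk2 lies at -0.60 in arrays numbered 2 to 4 and 0.35 in arrays numbered 5 and 6.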

How the data were processed

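Each sample was hybridised to 1 Affymetrix Mouse Gene 1.0 ST array. The authors deposited linear intensity values of 24922 probe sets, made with RMA and Affymetrix Power Tools per the submitters' processing notes. RMA corrects background, equalises the arrays and summarises probes, so small shifts shared by all genes are removed. No version or genome build is given in the sources used here. For every test the intensities were turned into log2 values as they stood.

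In the platform annotation of GEO, 21425 probe sets had 1 symbol, 1399 had several and 2098 had no entry. The probe set with the highest mean stood for a gene that had several, as 4 members did, which left 19752 genes with no filter on dim genes. One model over all 12 arrays held 4 group means and the number run, and another added a run-by-time term. Both were limma fits (version 3.58.1, lmFit then eBayes, R 4.3.3, 7 residual and 6.84 prior degrees of freedom in the first), with two-sided tests called at p under 0.05 after Benjamini-Hochberg adjustment over all genes. The test was tested on simulated data. The number of arrays limits the precision.

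Numbers 2, 3, 5 and 6 occur at both IL-12 times. Deviations of same-numbered arrays from their group means correlated at 0.36, 0.30, 0.52 and 0.37. The run that they share enters these values, and within runs the correlations were -0.26, -0.18, 0.03 and 0.03. Where a group has 2 arrays in a run, their deviations mirror each other, so the last 2 values are equal by construction. The within-run values are therefore not separate checks and cannot decide whether same-numbered arrays are paired. The pairing comes from the titles, and the fit with the number as a replicate block was run beside the main one.

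Members, lists and tests were chosen with earlier results of these data known. In each comparison the called members (at most 12 by p) and 15 members fixed by name were described, other pathway genes by up to 4 called per list. Egln1 and Ldhb, outside that limit for untreated against baseline, were named after their values were seen, as were other members given by a value alone. Alternatives left out the run term, a run or 1 array at a time, moved the baseline array, or changed the probe set rule, filter, normalization, prior or covariate. Windows of 250 bases upstream came from RefSeq. Python 3.11.15 and matplotlib 3.10.9 drew the plots.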

Additional observations from a re-analysis of the deposited data

Results flagged for a closer look

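The change of Hk2, Slc2a3 and Pfkm at 8 h against 2 h of IL-12 differed between arrays numbered 2 to 4 and arrays numbered 5 and 6, by -0.95, 0.73 and 0.56 on the log2 scale (run 2 to 4 minus run 5 to 8, limma adjusted p = 0.00569, 0.0302 and 0.0255). Some macrophage markers also differ between the runs. Their part in these differences was not tested. With their mean, which nearly repeats the run term, as a covariate all 3 calls held.

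In 68 combinations of a member and an IL-12 group, 1 array stood far from the others of its group in 2, and chance alone gives about 1 in 20. Pdk2 was at 7.91 in array 3 of the 8 h group, with the nearest other array at 8.02. Hif1a was at 12.91 in array 5 of the 2 h group, with the nearest at 13.04.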

How the results depend on the processing

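Counts of members called depended on how the runs were handled. For IL-12 8 h against 2 h (5 higher, 7 lower), there were 3 and 1 with no run term and 0 and 4 in arrays numbered 5 to 8 only. In arrays numbered 2 to 4 only there were 11 and 4, and 1709 and 1516 of all genes against 1239 and 1257. Once the mean of the macrophage markers, which nearly repeats the run term, was a covariate there were 3 and 2. With the replicate block there were 2 and 5, and 487 and 759 of all genes against 1239 and 1257. Without single arrays the counts ran from 3 to 6 and from 2 to 7. For IL-12 8 h against untreated (1 and 3), 0 were higher in arrays numbered 5 to 8 only and with the baseline array pooled, 0 were lower with no run term, and 0 in both directions with the covariate. Without single arrays there were 0 to 2 and 1 to 6. For untreated against baseline (1 and 13), 0 were higher with no run term, in arrays numbered 5 to 8 only, with the baseline array in run 2 to 4 and with the covariate, and 7 and 0 were lower with no run term and with the covariate. Single arrays gave 0 to 1 and 9 to 17. Between runs (2 and 7), the covariate left 0 and 0, and single arrays 1 to 3 and 3 to 8. The difference between runs (2 and 1) gave 5 higher among genes above the median intensity, and 0 to 3 and 1 without single arrays.

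Over all genes, untreated against baseline (1240 higher, 782 lower) gave 71 and 44 with no run term, 116 and 88 with the baseline array in run 2 to 4, and 80 and 18 with the covariate. IL-12 8 h against 2 h gave 412 and 459 with no run term, 78 and 285 in arrays numbered 5 to 8 only and 444 and 637 with the covariate. IL-12 8 h against untreated (205 and 420) gave 68 and 175 with no run term, 68 and 252 in arrays numbered 5 to 8 only, 48 and 42 with the baseline array pooled and 7 and 61 with the covariate. IL-12 2 h against untreated (14 higher) gave 9, 1 and 2 with no run term, arrays numbered 5 to 8 only and the covariate. Between runs (2322 and 2473) the covariate left 0 and 2, and the difference between runs (166 higher) gave 253 among genes above the median.

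Of 2085 values of single members under an alternative, 166 lost their call, 30 gained one and 1 reversed: Ldhb in untreated against baseline, at -0.079 with the baseline array placed in run 2 to 4. Within number runs, fewer arrays were fitted; otherwise the cause was not tested. With 1 baseline array, the baseline level has no replicate.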
